A study of Cavia porcellus with 12 samples.

Results

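Polyunsaturated fatty acids reach liver phospholipids through a short series of enzymes, and 10 genes of this series were followed here: the desaturases *FADS1* and *FADS2*, the elongases *ELOVL1*, *ELOVL2* and *ELOVL5*, the lysophospholipid acyltransferases *MBOAT7* and *LPCAT3*, the lysophospholipase-like gene *LYPLAL1*, and *CHKA* and *PCYT1A* of phosphatidylcholine synthesis. The genes were picked by name, with earlier results of these data known, and those with a row in the deposited expression table were taken. This held for 9 of the 10 genes among 11896 symbols. The symbols are those of human orthologues assigned to guinea pig loci. *ELOVL1* has no row in that table and was not analysed here. A symbol needed at least 200 counts over the 12 animals to enter the table, and all 9 genes passed this minimum. *FADS2*, with 26 counts over the controls and 620 over the animals with NASH, passed only through the NASH group and therefore had to differ.

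Essential fatty acids from the diet are desaturated by FADS2, elongated by ELOVL5, and desaturated again by FADS1, which gives arachidonic and eicosapentaenoic acid. ELOVL2 carries out the later elongations on the way to docosahexaenoic acid, which is completed by chain shortening in peroxisomes. LPCAT3 and MBOAT7 then place such acyl chains into membrane phospholipids, LPCAT3 mainly in phosphatidylcholine and phosphatidylethanolamine and MBOAT7 with arachidonic acid in phosphatidylinositol. Phosphatidylcholine itself is made in the CDP-choline pathway, in which CHKA phosphorylates choline and PCYT1A makes CDP-choline, the rate-limiting step. The liver carries out these reactions, and variants near *FADS1*, *MBOAT7* and *LYPLAL1* have been linked to lipid or fatty liver traits in humans.

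The samples were livers of female Dunkin Hartley guinea pigs. The 6 controls (animals 5, 10, 31, 32, 45 and 56) had eaten chow for 25 weeks and are labelled healthy. The 6 animals with NASH (2, 9, 11, 20, 41 and 65) had eaten a high-fat diet with added sucrose and cholesterol for the same time, and were animals with bridging fibrosis, so that diet and disease cannot be told apart. The livers had not been perfused, and each animal gave 1 mRNA library.

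The libraries held between 16980274 and 33091460 counts per animal, and values are given as CPM, counts scaled to a common library size with TMM factors, which also correct for library composition. A count of 0 can still hide up to 3 counts, or up to 0.214 CPM in a control and 0.105 CPM in an animal with NASH, and this limit covers counting error only. Of the 8 hepatocyte genes measured, all were expressed in every animal, and 7 passed the test as lower and none as higher in NASH (median log2 fold change −0.87). Their summed level was 105511 to 134507 CPM in controls and 41767 to 67644 CPM in NASH. All 5 cholangiocyte genes were higher in NASH, with a summed level of 73.2 to 115 CPM in controls and 302 to 539 CPM in NASH. Control 5 lay apart from all other animals on the second principal component of the deposited values, and its library was among the 2 smallest. Of 9 stellate cell genes 7 were higher and 1 lower, and all 4 erythroid genes measured were higher, from a sum of 57.0 to 172 CPM in controls to 435 to 4591 CPM in NASH. Over all 11896 symbols, 27.9% were called higher and 26.0% lower. The part of these cell types in the results that follow was not tested.

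Of the 9 genes, 5 were higher and 2 lower in NASH by edgeR's quasi-likelihood test at a Benjamini-Hochberg adjusted p under 0.05. *FADS1*, *FADS2*, *MBOAT7*, *LPCAT3* and *CHKA* rose, *ELOVL2* and *LYPLAL1* fell, and *ELOVL5* and *PCYT1A* did not pass the threshold. The same test called 53.9% of all 11896 symbols, 27.9% as higher and 26.0% as lower. Over the 9 genes the median log2 fold change was 0.59, from −3.23 for *ELOVL2* to 3.73 for *FADS2*, and 0.00 over all symbols. Levels did not overlap between the groups in 7 of the 9 genes, and in 33.7% of all symbols. *FADS2*, which had to differ, is among the 5 higher genes and these 7. As the genes were also chosen with earlier results known, neither count can show an excess over all symbols. Without control 5 and NASH animal 11, 5 genes were higher and 3 lower, *PCYT1A* being the third that fell. As these are whole livers, fewer cells of a type and less RNA per cell cannot be told apart.

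**Figure D1:**
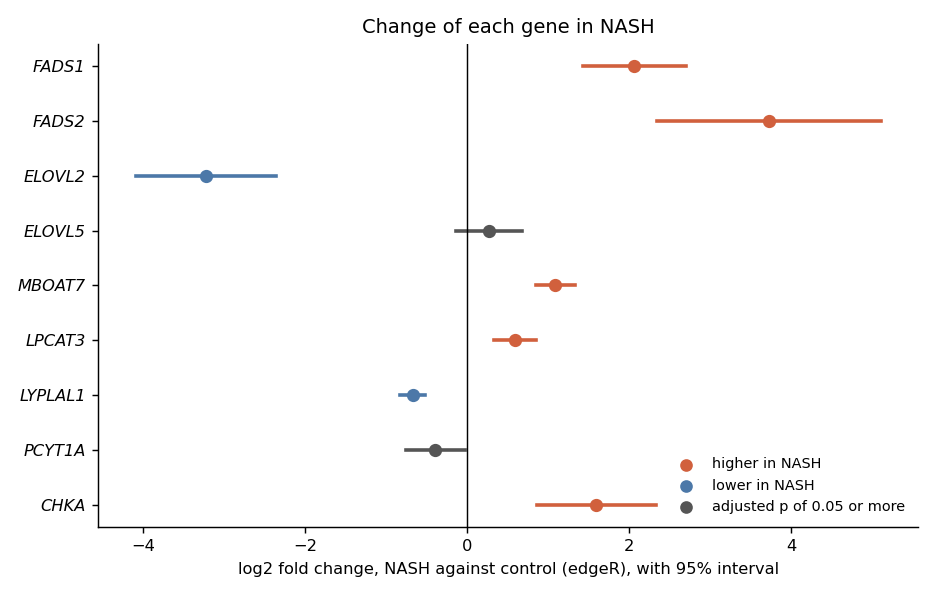
Log2 fold change of each gene in NASH against control (horizontal axis) with its 95% interval from edgeR, coloured by the outcome of the test. *FADS2* has the widest interval, from 2.34 to 5.11, *ELOVL2* lies furthest to the left at −3.23, and the interval of *ELOVL5* spans 0.

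Both desaturase genes had low counts in controls and rose in NASH. *FADS1*, which introduces the last double bond of arachidonic acid, ranged from 0.688 to 1.91 CPM in controls (median 1.15) and from 3.01 to 8.14 CPM in NASH (median 4.49). The lowest NASH value exceeded the highest control value. The mean rose from 1.20 ± 0.42 to 5.02 ± 1.95 CPM (SD, n = 6 each, log2 fold change 2.06, SE 0.29, edgeR adjusted p = 7.15e-05). *FADS2*, the desaturase that starts the pathway, had 0 to 8 counts in each control and 40 to 290 counts in each animal with NASH. In CPM this was 0 to 0.357 in controls (median 0.288) and 1.25 to 7.40 in NASH (median 1.69). The groups again did not overlap, but the NASH group was uneven, with animals 41 and 65 at 7.40 and 4.80 CPM and the other 4 between 1.25 and 1.80 CPM. The log2 fold change of *FADS2* was 3.73 (SE 0.64, 95% interval 2.34 to 5.11). As the gene entered the table only through NASH, its edgeR p-value is no support for a rise. Animals 41 and 65 were also the highest of the NASH group for *FADS1*, at 8.14 and 6.48 CPM. The same livers had the highest summed erythroid genes, 4591 and 3318 CPM, against 435 to 733 CPM in the other 4 animals with NASH. Without both, the log2 fold change was 1.68 for *FADS1* (edgeR adjusted p = 0.000364) and 2.72 for *FADS2*. The count rows of *FADS2* and *FADS1*, MSTRG.20718 and MSTRG.20719, carry consecutive locus numbers in the authors' transcript assembly, and neither row is shared with another symbol.

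The elongases differed from each other. *ELOVL2*, which lengthens the longer polyunsaturated chains, was at 13.6 to 42.4 CPM in controls (median 22.2) and at 0.952 to 5.86 CPM in NASH (median 2.26). The lowest control was above the highest animal with NASH. The mean fell from 24.2 ± 9.7 to 2.59 ± 1.72 CPM (SD, n = 6 each), a 9.37-fold lower level and a log2 fold change of −3.23 (SE 0.40, edgeR adjusted p = 2.53e-05). NASH animal 11 kept the highest level of its group, 5.86 CPM, and without it the NASH mean was 1.93 ± 0.70 CPM (SD, n = 5). The hepatocyte genes above had a median log2 fold change of −0.87 in the same livers, and their part in the fall of *ELOVL2* was not tested. *ELOVL5*, which acts between the desaturation steps, was at 5.45 to 12.4 CPM in controls (median 9.13) and at 8.81 to 12.2 CPM in NASH (median 10.6). The groups overlapped, and the log2 fold change was 0.27 (SE 0.19, 95% interval −0.14 to 0.67, edgeR adjusted p = 0.253). The interval leaves room for a moderate rise or a small fall of *ELOVL5*.

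**Figure D2:**
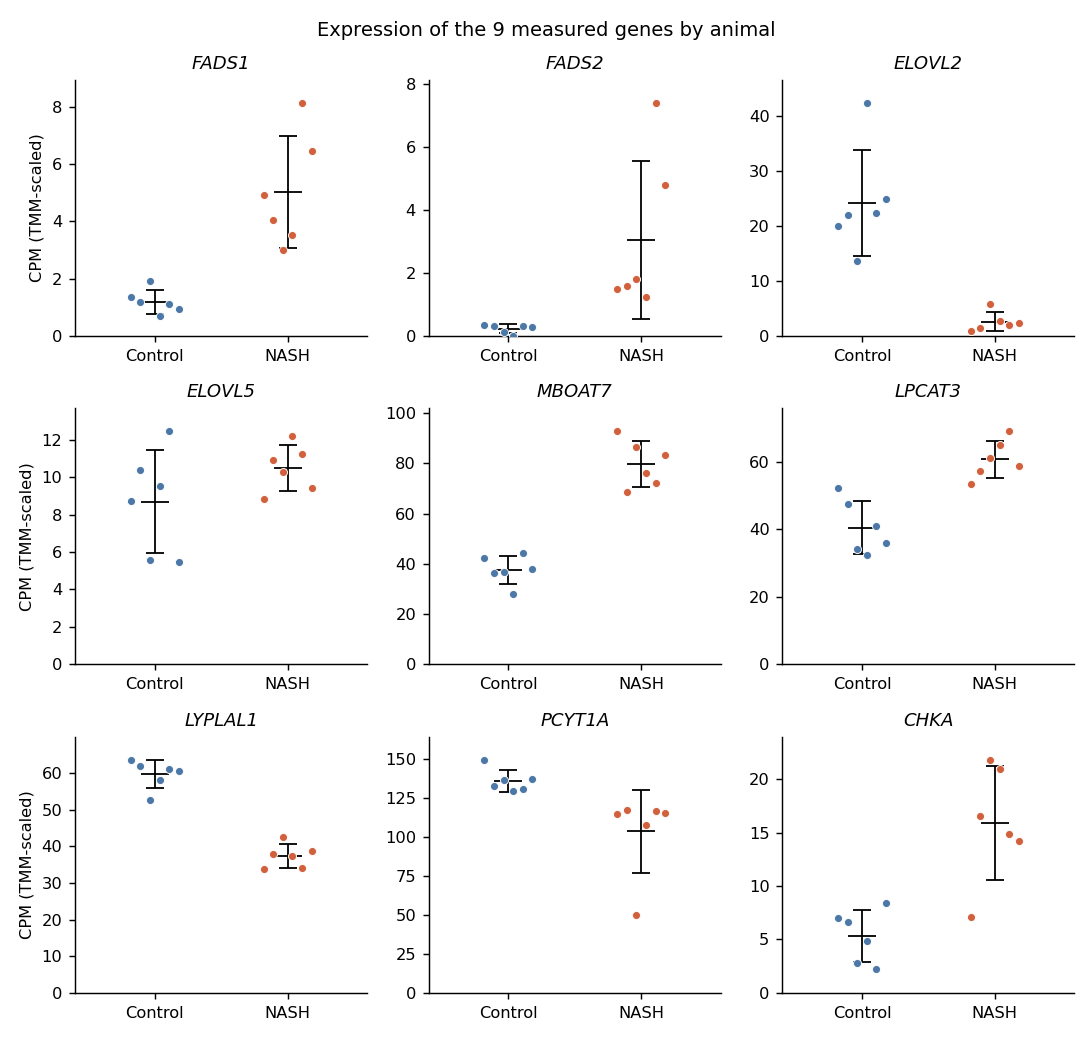
Level of each of the 9 genes in CPM (vertical axis, from 0) in every control and every animal with NASH, with the mean (bar) and SD (whiskers) of the 6 animals of a group. Points of the groups overlap in *ELOVL5* and *CHKA*, and 1 animal with NASH lies at 49.8 CPM in *PCYT1A*, under the other 5 at 107 to 117 CPM.

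The lysophospholipid acyltransferases both rose, and with a small spread. *MBOAT7* was at 28.1 to 44.2 CPM in controls (median 37.4) and at 68.6 to 92.7 CPM in NASH (median 79.9). No animal with NASH came near the highest control. The mean rose from 37.7 ± 5.6 to 79.9 ± 9.2 CPM (SD, n = 6 each, log2 fold change 1.08, SE 0.11, edgeR adjusted p = 4.95e-06). The count row of *MBOAT7*, MSTRG.21218, is also that of *TMC4*, so the reads of these genes cannot be told apart and the rise belongs to the joint locus. *LPCAT3* ranged from 32.4 to 52.2 CPM in controls (median 38.4) and from 53.5 to 68.9 CPM in NASH (median 60.0). The groups touched but did not overlap, with control 5 at 52.2 CPM just under NASH animal 2 at 53.5 CPM. The rise of *LPCAT3* was smaller, with a log2 fold change of 0.59 (SE 0.12, edgeR adjusted p = 0.00114).

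*LYPLAL1*, a relative of the lysophospholipases and protein deacylases, went the other way. It was at 52.7 to 63.6 CPM in controls (median 60.9) and at 33.9 to 42.5 CPM in NASH (median 37.6). The groups were well apart, and the coefficient of variation was 6.47% in controls and 8.56% in NASH. The mean fell from 59.7 ± 3.9 to 37.4 ± 3.2 CPM (SD, n = 6 each, log2 fold change −0.67, SE 0.07, edgeR adjusted p = 6.83e-06). With library size alone in place of TMM scaling, the fall was −0.20 on the log2 scale (edgeR adjusted p = 0.0143), while the median of all symbols moved to 0.48.

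Of the genes of phosphatidylcholine synthesis, the kinase at the entry rose, and the gene of the rate-limiting enzyme did not pass the test. *CHKA* was at 2.26 to 8.41 CPM in controls (median 5.77) and at 7.11 to 21.8 CPM in NASH (median 15.7). The groups overlapped through NASH animal 2 at 7.11 CPM, which was under control 56, while the other 5 animals with NASH were at 14.2 to 21.8 CPM. The mean rose from 5.33 ± 2.46 to 15.9 ± 5.3 CPM (SD, n = 6 each, log2 fold change 1.59, SE 0.34, edgeR adjusted p = 0.00158). Without NASH animal 2 it was 1.74.

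*PCYT1A* had the highest mean count of the 9 genes, with 1519 to 4576 counts in an animal. It was at 129 to 149 CPM in controls (median 134), and 5 animals with NASH were at 107 to 117 CPM. NASH animal 11 was at 49.8 CPM, less than any other animal. Every animal with NASH was thus under every control, yet the log2 fold change of −0.39 (SE 0.17, 95% interval −0.76 to −0.02) did not pass the adjusted threshold (edgeR adjusted p = 0.0696). Without animal 11 the NASH mean was 114 ± 4.0 CPM (SD, n = 5), against 136 ± 7.3 CPM (SD, n = 6) in controls, and *PCYT1A* was called lower with a smaller log2 fold change of −0.25 (edgeR adjusted p = 0.00444). With library size alone the estimate was 0.09, which is under the shift of all symbols.

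To compare genes of related steps, the log2 ratio of their CPM was taken within each animal for 4 pairs and compared between groups by an exact two-sided permutation test over all splits of the animals, adjusted over the 4 pairs. The ratio of *ELOVL2* to *ELOVL5* went from 1.45 ± 0.57 in controls to −2.19 ± 0.81 in NASH on the log2 scale (SD, n = 6 each). It was above 0 in every control and below 0 in every animal with NASH, a difference of −3.64 (exact p = 0.00216, the least that 6 against 6 can give, adjusted p = 0.00433). CPM is not corrected for transcript length, so the sign alone does not order the levels of the genes. NASH animal 11 was nearest to the controls, at −0.80. The ratio of *CHKA* to *PCYT1A* rose from −4.80 ± 0.73 to −2.72 ± 0.92 (SD, n = 6 each), a difference of 2.07 (exact p = 0.00216, adjusted p = 0.00433). These groups met closely, with control 56 at −4.01 and NASH animal 2 at −4.00.

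The ratio of *MBOAT7* to *LPCAT3* rose by a small amount, from −0.10 ± 0.22 to 0.39 ± 0.26 (SD, n = 6 each), and the groups overlapped (difference 0.49, exact p = 0.00866, adjusted p = 0.00866). *FADS1* relative to *FADS2* fell from 2.17 ± 0.84 to 0.95 ± 0.61 (SD, n = 6 each, difference −1.22). As *FADS2* entered the table only through NASH, a fall of this ratio was favoured in advance. Its exact p is therefore not read as support for a larger rise of *FADS2*. The ratio rests on 26 counts of *FADS2* in all controls together. Controls 31 and 32, with 3 and 0 counts of *FADS2*, had the highest ratios, 3.19 and 3.31, which depend on the prior count of 2, scaled to library size, that is added before the logarithm. With 0.5 counts added the difference was −1.62. On the deposited regularised log scale the difference was 0.0004 (adjusted p = 0.998 by the same exact test).

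**Figure D3:**
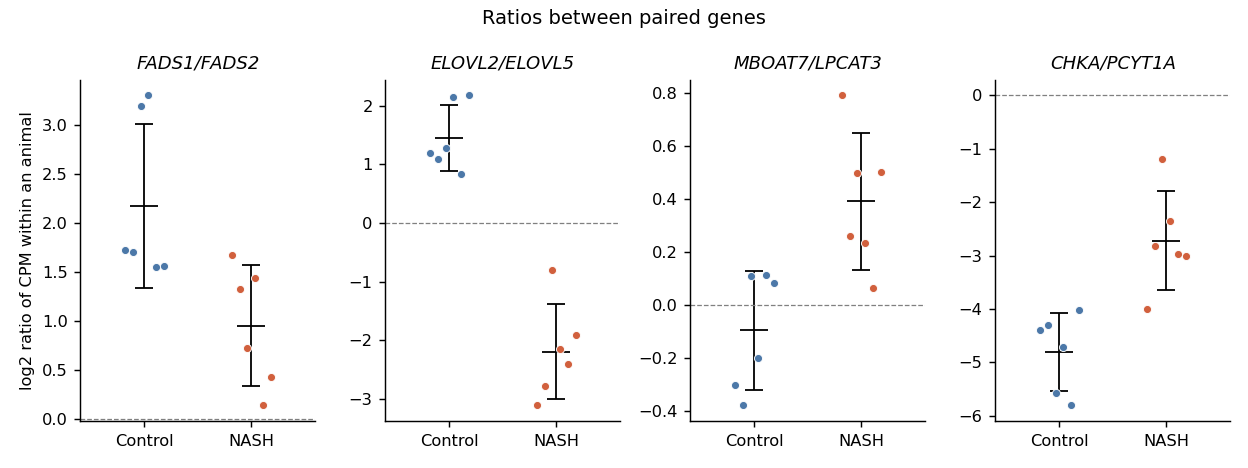
Log2 ratio of CPM within an animal (vertical axis) for 4 pairs of genes, by group, with mean and SD of 6 animals, and a dashed line at equal CPM. The groups are apart for *ELOVL2* to *ELOVL5* and, by a small margin, for *CHKA* to *PCYT1A*, and overlap for the other pairs.

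The spread between animals differed among the genes and was not the same in both groups. *FADS2* had the highest coefficient of variation, 58.8% in controls and 82.0% in NASH, but the control value rests on 0 to 8 counts per animal and so holds much counting error. *ELOVL2* was at 66.6% in NASH, and at 36.4% there without animal 11. *CHKA* was at 46.0% in controls. *LPCAT3* varied more in controls than in NASH, with 19.5% and 9.11%, and *ELOVL5* did as well, with 31.6% and 11.8%. *PCYT1A* had the lowest value in controls, 5.35%, against 25.7% in NASH and 3.51% in NASH without animal 11. NASH animal 11 had the highest *ELOVL2*, *LYPLAL1* and *CHKA* and the lowest *FADS1* and *PCYT1A* of its group. NASH animal 2 had the highest *MBOAT7* and the lowest *ELOVL2*, *ELOVL5*, *LPCAT3*, *LYPLAL1* and *CHKA*.

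The deposited regularised log (rlog) values are pulled towards each gene's mean, and all 9 genes differed less on this scale than by counts. The difference in mean rlog value was 0.64 for *FADS1* and 0.64 for *FADS2*, although the count-based log2 fold changes were 2.06 and 3.73. For *ELOVL2* it was −1.67 against −3.23, and for *CHKA* 0.81 against 1.59. For *MBOAT7*, with at least 564 counts in every animal, it was 0.68 against 1.08, and for *LYPLAL1* −0.42 against −0.67. The direction was the same on both scales in all 9 genes. With limma on the rlog values, *PCYT1A* was called lower as well (log2 difference −0.28, adjusted p = 0.0491 from limma).

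**Figure D4:**
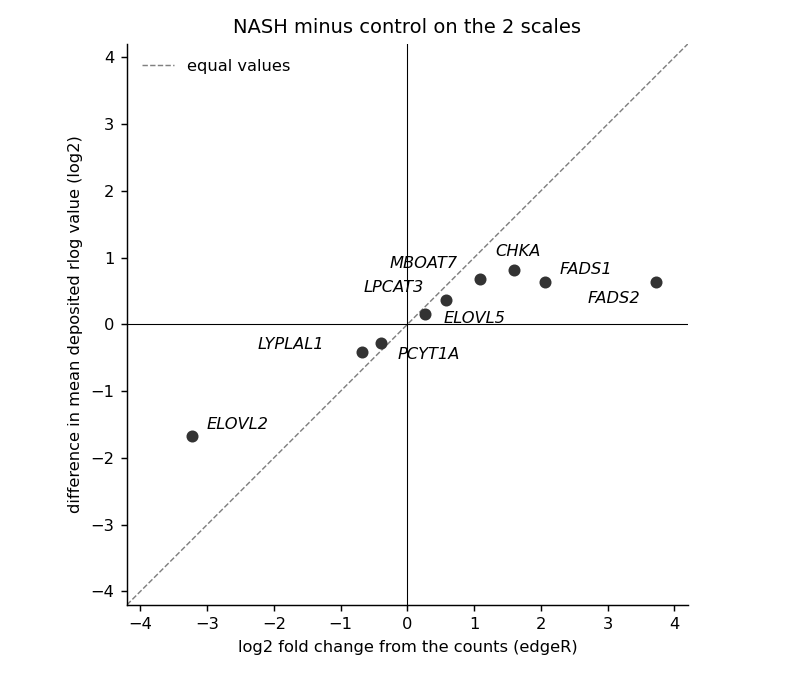
Difference of NASH and control for the 9 genes as log2 fold change from the counts (horizontal axis) and as difference in mean deposited rlog value (vertical axis), with a dashed line at equal values. All points lie nearer to 0 on the rlog axis, most of all *FADS2*, at 3.73 from the counts and 0.64 in rlog values.

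Around these genes, 8 lists of neighbouring steps held 153 further symbols, of which 120 were measured. Some symbols without a row are other names of listed genes, such as *PLA2G16* for *PLAAT3*. Of the 120, 34 were higher and 47 lower in NASH, beside 27.9% higher and 26.0% lower over all symbols. Their median log2 fold change was −0.16. With library size alone, which moves all symbols up, 62 were higher and 28 lower. Of the other desaturation and elongation genes, 13 of 18 were measured, 3 higher and 6 lower, with a median of −0.37. *SCD5*, a stearoyl-CoA desaturase, rose from 0.720 ± 0.286 to 6.96 ± 2.18 CPM (SD, n = 6 each, log2 fold change 3.30). With its control counts, 7 to 17 per animal, in both groups it would have missed the minimum count of the table. A rise of *SCD5* was thus favoured in advance, and its edgeR p-value is not read as support. *HACD4* of the dehydratase step rose by 2.33 and the elongase *ELOVL7* by 1.32, whereas *FADS6* fell from 49.0 ± 32.3 to 17.3 ± 7.1 CPM (SD, n = 6 each).

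Of the list of peroxisomal chain shortening, through which docosahexaenoic acid is completed, 8 of 11 genes were measured, 6 passed as lower and none as higher (median log2 fold change −1.18). In 6 of them the groups did not overlap. Over all symbols 26.0% were lower, and 15.3% were lower without overlap. *CROT*, which exports shortened chains as carnitine esters, fell by 1.48, the bifunctional enzyme *HSD17B4* by 1.43 and the reductase *DECR2* by 1.31 on the log2 scale. The hepatocyte list fell in the same livers with a median of −0.87, and its part in these values was not tested.

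Acyl-CoA synthetases and binding proteins activate fatty acids for all of these steps. They had 5 lower and 2 higher genes among the 8 measured (median −0.91), beside 26.0% and 27.9% of all symbols. *ACSL3* fell by 1.40, *SLC27A2* by 1.35, *SLC27A5* by 1.13 and *ACSL1* by 1.09. *ACSL4*, which prefers arachidonic acid, was the highest of the list with a log2 fold change of 0.73 (edgeR adjusted p = 0.00783); it was singled out after its value was seen.

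The list of other acyltransferases of phospholipids and glycerol phosphate had 8 of 15 measured genes higher and 5 lower (median 0.21). The shares over all symbols were 27.9% and 26.0%. This list also holds *PLA2G7*, a phospholipase that degrades platelet-activating factor and no acyltransferase, which is among the 8 (log2 fold change 1.22). *LPCAT2*, an acyltransferase of inflammatory cells that also makes platelet-activating factor, had no count in 4 controls and at most 8 in the others, and 19 to 186 counts in NASH. It entered the table only through NASH and therefore had to differ, so its place among the 8 higher genes is no support for a rise. *GPAT3* rose from 0.856 ± 0.425 to 6.63 ± 3.15 CPM (SD, n = 6 each), *AGPAT4* by 1.99 and *LPCAT4* by 1.68 on the log2 scale. With its control counts, 8 to 21 per animal, in both groups *GPAT3* would have missed the minimum count of the table. A rise of *GPAT3* was thus favoured in advance. Macrophage genes had 3 higher and 1 lower among 8 measured, with a summed level of 381 to 642 CPM in controls and 965 to 1269 CPM in NASH, and their part in these values was not tested. *GPNMB* made up most of the rise in this sum, from a mean of 54.0 to 498 CPM, while *CD14*, *C1QA*, *C1QB* and *CSF1R* did not pass the test and *MARCO* fell by 1.27 on the log2 scale.

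Phospholipases and lysophospholipases had 6 higher and 4 lower genes among the 19 measured (beside 27.9% and 26.0% of all symbols), with a median of 0.04. The lysosomal *PLA2G15* rose from 9.56 ± 1.45 to 39.0 ± 5.6 CPM (SD, n = 6 each, log2 fold change 2.03 with an edgeR adjusted p of 1.22e-07), and *PLD3*, also lysosomal, rose by 1.65. *PLAAT3* rose by 0.85. *PNPLA7*, which cleaves lysophosphatidylcholine, fell by 0.90, but its count row is shared with *NSMF*.

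The other genes of choline and ethanolamine phospholipid synthesis had 6 higher and 7 lower among the 25 measured, with a median of −0.03. Shares over all symbols were 27.9% and 26.0%. *BHMT*, which passes the methyl group of betaine from choline to homocysteine, fell from 3280 ± 814 to 900 ± 438 CPM (SD, n = 6 each, log2 fold change −1.87 with an edgeR adjusted p of 0.000262). The ethanolamine kinase *ETNK2* fell by 1.47, and the choline transporter *SLC44A2* rose by 1.35. *CDS1*, which makes CDP-diacylglycerol for phosphatidylinositol, rose by 1.73 from a low level of 0.617 ± 0.157 CPM (SD, n = 6) in controls. With its control counts, 5 to 16 per animal, in both groups it would have missed the minimum count of the table. Its place among the 6 higher genes was thus favoured in advance and is not read as support for a rise. Named after their values were seen, *CHKB*, another choline kinase, was lower with a log2 fold change of −0.68 (edgeR adjusted p = 0.000364, on a count row that 5 symbols share), and *PEMT*, the methylation route to phosphatidylcholine, was at 0.27 (edgeR adjusted p = 0.367).

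The list of lipogenic transcription factors and their partners had 5 of 18 measured genes higher and 8 lower (median −0.33). Beside this, 27.9% of all symbols were higher and 26.0% lower. Among those called in the list are genes of no transcription factor, the protease *MBTPS2* at 0.63 and the sterol sensor *INSIG1* at −1.10 on the log2 scale. *SREBF1*, whose product SREBP1 drives fatty acid synthesis and desaturation genes, rose from 15.4 ± 7.5 to 50.2 ± 8.9 CPM (SD, n = 6 each, log2 fold change 1.70 with an edgeR adjusted p of 0.000284), without overlap. *NR1H3*, the liver X receptor alpha, fell from 158 ± 21 to 66.8 ± 11.7 CPM (SD, n = 6 each, log2 fold change −1.24 with an edgeR adjusted p of 3.94e-06). *MLXIPL*, the carbohydrate response factor, fell by 1.95 and *THRSP*, a lipogenic partner with 30 to 1272 counts in controls and 0 to 14 in NASH, was lower as well. *THRSP* entered the table only through the controls and therefore had to differ, so its place among the 8 lower genes is no support for a fall. *PPARA*, which drives fatty acid oxidation genes and also acts on the desaturases, was at 110 ± 42 CPM in controls and 124 ± 18 CPM in NASH (SD, n = 6 each, log2 fold change 0.16, edgeR adjusted p = 0.665). Control 5 was at 26.2 CPM, and without it the control mean of *PPARA* was 127 ± 11 CPM (SD, n = 5) and the log2 fold change turned to −0.04 (edgeR adjusted p = 0.779).

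Eicosanoids derive from arachidonic acid. Of the genes that make or break them down, 14 of 22 were measured, 4 higher and 6 lower, with a median of −0.33. This stands beside 27.9% higher and 26.0% lower over all symbols. Those of the list that fell include *EPHX2* and *HPGD*, which act in breakdown. *PTGIS*, the prostacyclin synthase, rose from 8.81 ± 1.47 to 28.1 ± 3.4 CPM (SD, n = 6 each, log2 fold change 1.68 with an edgeR adjusted p of 2.82e-07). *PTGDS*, a prostaglandin D synthase, fell by 2.93, but its count row carries a further symbol, and *HPGD*, which inactivates prostaglandins, fell by 0.93. *HPGDS* had counts in only 1 control, 5 counts, and in 3 of 6 animals with NASH, up to 161 counts. It entered the table only through NASH and therefore had to differ. That *HPGDS* passed edgeR's test and is among the 4 higher genes is no support for a rise.

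**Figure D5:**
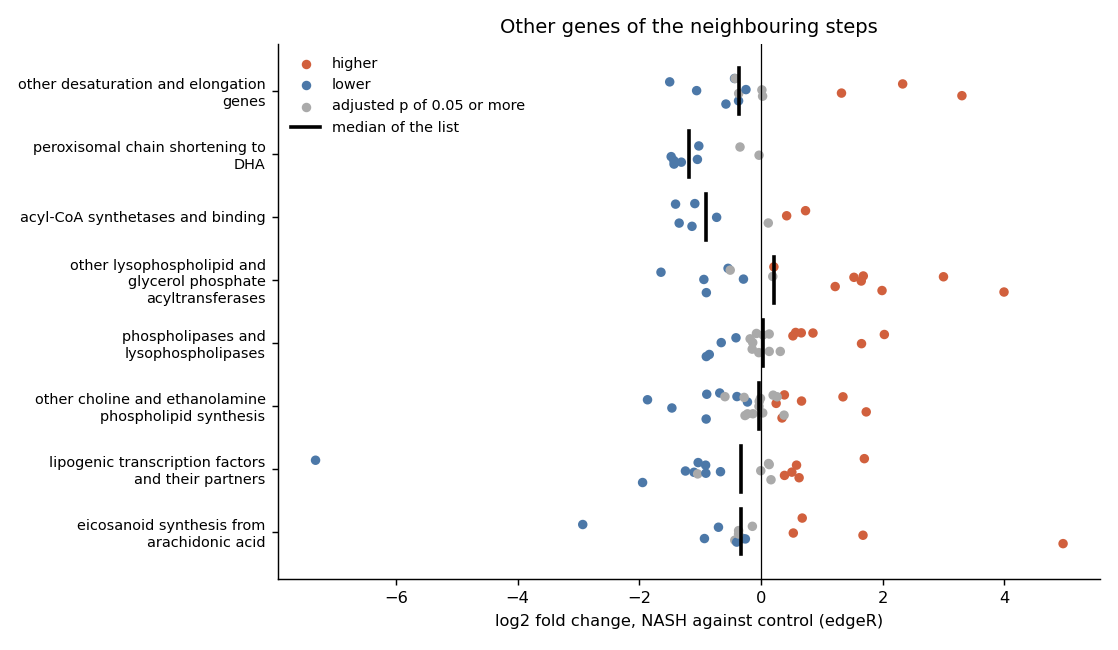
Log2 fold change in NASH against control (horizontal axis) of each measured gene of the 8 neighbouring lists, 1 point per gene, coloured by the outcome of edgeR's test, with the list median as a black bar. The peroxisomal list lies to the left of 0 with a median of −1.18, and the list of acyltransferases, *PLA2G7* included, spreads to both sides of 0.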

How the data were processed

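The authors deposited raw counts per locus and animal, made by trimming with Trimmomatic 0.38.0, mapping with HISAT2 2.1.0 to Cavpor3.0 and assembly with StringTie 1.3.6, with multimapped reads left out, and log2 values by the rlog transformation of DESeq2. The count table holds 39061 rows without symbols, so the row behind each of the 11896 symbols was found by repeating rlog, which recovered all deposited values to within 8e-07. These came from 11031 rows, as 1515 symbols share a row. Counts of all 11896 symbols were fitted in R 4.3.3 with edgeR 4.0.16 (TMM factors, library size from all rows, robust glmQLFit, glmQLFTest, Benjamini-Hochberg over all symbols), also for members of lists. SE is the absolute log2 fold change over the square root of F. Log2 CPM ratios used a prior count of 2. Total counts were 16980274 to 33091460, and TMM factors 0.804 to 0.875 in controls and 1.12 to 1.24 in NASH. Each library came from its own animal, and the variance between animals of a group was at least 44.5 times that of counting error. The labels give no batch.

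Alternatives were RLE factors, library size alone, DESeq2 1.42.0, limma-voom and limma on rlog values (limma 3.58.1), other row filters, an adjusted p under 0.01, glmTreat with a log2 fold change of 1, each animal left out, and, added after the data were seen, control 5 and NASH 11, or NASH 41 and 65, left out together. On simulated counts of 11031 rows, 200 of them changed 4-fold, edgeR, DESeq2 and limma-voom each recovered 100% of the changes, and 7.41%, 13.8% and 6.1% of their calls fell on unchanged rows. Members and lists were chosen with earlier results of these data known. Named beyond the 9 genes were up to 4 genes per list that changed most among those called, and *SREBF1*, *NR1H3*, *PPARA* and *MLXIPL*. *ACSL4*, *CHKB*, *PEMT*, *PLA2G7*, *MBTPS2*, *INSIG1* and *EPHX2* were named after their values were seen. So were the macrophage genes *GPNMB*, *CD14*, *C1QA*, *C1QB*, *CSF1R* and *MARCO*. A gene that this rule names is not reported here. No sequence or genome was used here.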

Additional observations from a re-analysis of the deposited data

Results flagged for a closer look

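In 110 groups of 6 animals (9 genes, 4 ratios, the neighbouring genes named and the cell type sums), the gap of the highest or lowest animal to the next was compared with Dixon's critical value of 0.625, and 9 exceeded it. Chance alone gives about 1 in 20. Among the 9 genes this held for NASH animal 11, which was lowest in *PCYT1A* at 49.8 CPM, against 107 CPM in the next animal, and highest in *ELOVL2* at 5.86 CPM, against 2.68 CPM.

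Control 5 was lowest in *PPARA* at 26.2 CPM (next 112 CPM), highest in *AGPAT4* at 3.001 CPM and highest in the summed B cell genes at 10.9 CPM. Control 32 was lowest in *HPGD* at 42.8 CPM, and control 56 was highest in *HPGDS* at 0.337 CPM. The other controls had no count of *HPGDS*, so any count at all would have exceeded the critical value. NASH animal 20 was highest in *ELOVL7* at 4.24 CPM and in *FADS6* at 30.9 CPM.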

How the results depend on the processing

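Over 17 results and 344 recomputed values, 334 kept their direction and side of the threshold, or for counts stayed within 1.5 times. *FADS1*, *FADS2*, *ELOVL2*, *MBOAT7*, *LPCAT3*, *LYPLAL1* and *CHKA* passed the threshold under all 22 alternatives run for each. *ELOVL5* was called higher with library size alone (0.75, where all symbols shift by 0.48), and *PCYT1A*, not called there, changed sign (0.0865). *PCYT1A* was called lower with limma on rlog values (−0.28) and without control 5 and NASH 11 (−0.22), and with each animal left out it ranged from −0.43 to −0.25, the last without NASH 11. Against an absolute log2 fold change of 1, only *FADS1*, *FADS2* and *ELOVL2* passed, so 2 genes were higher and 1 lower. For *FADS2*, which entered the table only through NASH, none of these passes is support. Library size alone gave 62 higher and 28 lower neighbouring genes. The *FADS1* to *FADS2* ratio turned to 0.0004 on rlog values, and the cause was not tested. No paired analysis was possible because the groups share no animal number. Depth limits *FADS2*, with 0 to 8 counts per control, and also *LPCAT2* and *HPGDS*, with no count in 4 and 5 controls.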

Other observations

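Relations between the 9 genes from animal to animal were computed within each group on log2 CPM, in 72 combinations of pair and group, with exact permutation tests over the 720 pairings of 6 animals. An unadjusted p under 0.05 was reached by 6 of them and an adjusted p under 0.05 by none. In controls, *FADS1* was lower where *ELOVL2* was higher, with Pearson's r of −0.98 (exact p = 0.0042, adjusted p = 0.30) and Spearman's rho of −1.0 (exact p = 0.0028, adjusted p = 0.20), and r was −0.99 without the 2 animals farthest from the median of *FADS1*. In NASH the same pair had an r of −0.42 (exact p = 0.415, adjusted p = 0.767) and a rho of −0.54 (exact p = 0.297, adjusted p = 0.852), and r was −0.06 without the 2 farthest animals. The difference between the groups was not tested. Neither passed the correction.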
